A study of Homo sapiens with 12 samples.

Results

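The 3′ ends of all 22 mitochondrial tRNAs (mt-tRNAs) were compared between HEK293T cells with intact PDE12 that overexpressed mtPAP (PDE12+/+ + mtPAP) and PDE12+/+ cells without it. HEK293T is a human embryonic kidney line, here with the Flp-In T-REx insertion system, in which a transgene is switched on by doxycycline. The length of the induction, and whether the cells without mtPAP also received doxycycline, are not given in the sources used here. The series holds 12 samples, of which 6 are MPAT-Seq libraries, 1 per condition, and 2 of these form the comparison. MPAT-Seq sequences the tails of mitochondrial RNAs. Cells were used between passages 10 and 15. The PDE12-/- cells whose levels are given further on are 1 clone made with zinc finger nucleases. RNA 3′ ends are joined to a linker and each mt-tRNA is amplified with its own primer, so that each read shows which bases follow the last encoded base of the mt-tRNA.

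The sources disagree on the genotype of the mtPAP libraries. The sample title of the library used here reads PDE12-/- + mtPAP, whereas its file name, the first line of its table and the matching sheet of the study's source data, identical in 269 of 269 rows, give PDE12+/+. The table labelled PDE12+/+ + mtPAP matches the PDE12-/- sheet in 281 of 281 rows. The genotype of the tables was used, and the values under the other reading are given at the end. Neither PDE12 nor MTPAP, which are nuclear genes, is amplified in this assay, so the reads carry no check of the genotype or of the overexpression.

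A mt-tRNA works only when its 3′ end carries the sequence CCA. CCA is not encoded in human mitochondrial DNA. It is added by a dedicated enzyme after the precursor is trimmed at the discriminator base, the last encoded base, and the amino acid is attached to its final A. mtPAP is the mitochondrial poly(A) polymerase, which adds A tails to mitochondrial mRNAs, and PDE12 is a 3′ to 5′ exoribonuclease with a preference for poly(A). The comparison asks what more polymerase does to mt-tRNA ends while the deadenylase is present.

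Positions are counted from the discriminator base, so that the CCA occupies +1 to +3 and +4 is the first base beyond it. The percentage extended is the reads that reach +4 divided by the reads at +3. Reads at +3 that do not reach +4 are called reads ending at CCA. Both counts include reads whatever bases they hold at +1 to +3. There were 433402 reads at +3 in PDE12+/+, 169 to 77333 per mt-tRNA, and 264522 in PDE12+/+ + mtPAP, 49 to 78142 per mt-tRNA. With 1 library on each side no test of the conditions was possible. Intervals are 95% Wilson intervals, which cover counting error only and treat amplified reads as independent, and a value is called higher or lower where the intervals of both libraries were apart. These calls compare 2 libraries and not the conditions.

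The ends at which the results turn are shown here because the encoded bases that follow a gene are what a read would contain if the precursor had not been trimmed. Each sequence is the RNA sense, 5′ to 3′, in DNA letters, from the mitochondrial genome of GRCh38, with gene bounds from GENCODE release 44. The capital is the discriminator base, the 8 lower-case bases after it are encoded downstream, and CCA would be joined at the capital. The first 5 are the mt-tRNAs with the largest differences upward, and the last 4 are those that were lower.
MT-TP (proline), − strand, chrM:15948-15977: gagttaaagactttttctctgAtttgtcct
MT-TE (glutamate), − strand, chrM:14666-14695: ggttgtagtccgtgcgagaatAatgatgta
MT-TL1 (leucine, UUR codons), + strand, chrM:3283-3312: ggttcaattcctcttcttaacAacataccc
MT-TT (threonine), + strand, chrM:15932-15961: tgaaaacctttttccaaggacAaatcagag
MT-TY (tyrosine), − strand, chrM:5818-5847: ggggttaggcctctttttaccAgctccgag
MT-TN (asparagine), − strand, chrM:5649-5678: ggtttaagtcccattggtctaGtaagggct
MT-TQ (glutamine), − strand, chrM:4321-4350: ggttcgattctcatagtcctaGaaataagg
MT-TL2 (leucine, CUN codons), + strand, chrM:12315-12344: ggtgcaactccaaataaaagtAataaccat
MT-TM (methionine), + strand, chrM:4448-4477: tggttatacccttcccgtactAattaatcc

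Extension beyond CCA was higher with mtPAP for most mt-tRNAs. The percentage extended was higher with intervals apart for 15 of 22 mt-tRNAs (68.2%) and lower for 4 (18.2%), and the intervals of MT-TI, MT-TS1 and MT-TS2 overlapped. The median over the 22 was 12.8% in PDE12+/+ and 24.2% with mtPAP, with quartiles of 6.48% and 31.9% in the former and 6.66% and 65.4% in the latter. The upper quartile moved and the lower one hardly did. When the reads of all mt-tRNAs were summed first, 12.7% of reads were extended in PDE12+/+ and 12.3% with mtPAP. The median and the summed percentage thus differed in direction. MT-TV, of which under 2% of reads were extended, took 2.66% of the reads at +3 in PDE12+/+ and 29.5% with mtPAP. Its weight in the summed percentage therefore differed between the libraries.

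MT-TP showed the largest difference. Of its 2973 reads at +3 in PDE12+/+, 688 were extended (23.1%, interval 21.7 to 24.7), against 424 of 486 with mtPAP (87.2%, interval 84.0 to 89.9), a difference of 64.1 percentage points (Newcombe interval 60.5 to 67.2). MT-TE had 991 of 8720 reads extended in PDE12+/+ (11.4%, 10.7 to 12.0) and 830 of 1204 with mtPAP (68.9%, 66.3 to 71.5), a difference of 57.6 points (54.8 to 60.2). Both genes lie on the − strand. A leucine and a threonine mt-tRNA, both on the + strand, came next.

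MT-TL1 had 1399 of 4225 reads extended in PDE12+/+ (33.1%, 31.7 to 34.5) and 3672 of 4363 with mtPAP (84.2%, 83.1 to 85.2). MT-TT had 1142 of 6049 (18.9%, 17.9 to 19.9) and 939 of 1380 (68%, 65.5 to 70.5). MT-TY had 380 of 1123 (33.8%, 31.1 to 36.7), but only 41 of 54 reads with mtPAP (75.9%, 63.0 to 85.4). The MT-TY value therefore rests on few molecules, although its interval stayed clear of that in PDE12+/+. In these 5 mt-tRNAs the majority of reads that reached the A of CCA carried at least 1 further base. These are shares of reads. The study cautions that MPAT assays might overstate extension on molecules without base modifications, so the share of extended molecules may differ.

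MT-TK, the lysine mt-tRNA, followed with 2084 of 25985 reads extended in PDE12+/+ (8.02%, 7.70 to 8.36) and 1461 of 3758 with mtPAP (38.9%, 37.3 to 40.4). MT-TA, for alanine, had 22% and 41.0% extended, 4224 of 19204 reads and 11023 of 26911 reads. MT-TD (aspartate), MT-TF (phenylalanine), MT-TW (tryptophan) and MT-TR (arginine) differed by 10.1, 9.87, 9.24 and 8.32 points. Extended reads were 4.99% and 15.1% in MT-TD, 33.6% and 43.5% in MT-TF, 8.51% and 17.7% in MT-TW, and 8.35% and 16.7% in MT-TR. The value of MT-TR with mtPAP rests on 21 of 126 reads, and its call was lost with 99% intervals. For all 6 the extended reads were still the smaller part with mtPAP.

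A further group had few extended reads in either library. MT-TH (histidine) went from 3.11% (2.90 to 3.33) to 9.05% (8.58 to 9.55), with 783 of 25189 and 1230 of 13589 reads extended. MT-TG (glycine) had 2.87% and 5.87%, and MT-TC (cysteine) 2.25% and 4.29%. MT-TV (valine) had 1.47% (1.26 to 1.70) and 1.80% (1.71 to 1.90), the smallest difference that was called, 0.34 points (0.083 to 0.562). It lost the call when divided by discriminator base reads and with 99% intervals. It also lost it once reads with T at +5, the second base of the linker, were taken out, an alternative added after seeing the data, which left 1.28% and 1.33%.

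The serine pair did not differ beyond counting error. MT-TS2, for AGY codons, had 6206 of 11065 reads extended in PDE12+/+ (56.1%, 55.2 to 57.0) and 1422 of 2475 with mtPAP (57.5%, 55.5 to 59.4), a difference of 1.37 points with an interval of -0.797 to 3.51. MT-TS1, for UCN codons, had 28.4% and 30.6%, from 169 and 49 reads, and the interval of its difference ran from -11.0 to 17.5. MT-TI, for isoleucine, was the most extended mt-tRNA in PDE12+/+ at 59.8% (125 of 209 reads) and stood at 68.9% (752 of 1091) with mtPAP. Its intervals just overlapped, while the interval of the difference, 2.12 to 16.4 points, lay above 0.

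Extension was lower with mtPAP for MT-TN, MT-TQ, MT-TL2 and MT-TM. MT-TN had 24514 of 64736 reads extended in PDE12+/+ (37.9%, 37.5 to 38.2) and 2313 of 14468 with mtPAP (16.0%, 15.4 to 16.6), a difference of -21.9 points (-22.6 to -21.2). MT-TQ had 263 of 1852 (14.2%, 12.7 to 15.9) and 2 of 791 (0.253%, 0.0694 to 0.917). MT-TL2 had 166 of 1604 (10.3%, 8.95 to 11.9) and 3 of 510 (0.588%, 0.200 to 1.72). With mtPAP, MT-TQ lay under and MT-TL2 at the share that 3 reads make up, 0.379% and 0.588% of their reads at +3.

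MT-TM, the only methionine mt-tRNA of human mitochondria and the deepest in PDE12+/+, had 4611 of 77333 reads extended (5.96%, 5.80 to 6.13) and 1437 of 44432 with mtPAP (3.23%, 3.07 to 3.40). For MT-TN the direction is not fixed among reads with a regular CCA. At its +2, 33.1% of reads in PDE12+/+ and 10.7% with mtPAP held A in place of C. Among reads without A at +2 the extended share of MT-TN can lie anywhere from 4.82% to 58.0% in PDE12+/+ and from 5.92% to 17.9% with mtPAP, since the tables do not link positions within a read. The same bounds kept MT-TQ, MT-TL2 and MT-TM lower and 12 of the 15 higher, and left 7 mt-tRNAs without a direction, namely MT-TV, MT-TI, MT-TN, MT-TC, MT-TS1, MT-TR and MT-TS2.

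By the base at the 3′ end, 12 of the 16 mt-tRNAs with discriminator base A were higher and 2 lower, with a median difference of 9.98 points. Of the 6 with another discriminator base, 3 were higher and 2 lower, with a median of 2.13 points. The difference between these groups was not tested. By strand, 10 of 14 on the + strand and 5 of 8 on the − strand were higher, with medians of 8.72 and 10.6 points, and 2 on each strand were lower.

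Neighbours in the genome differed in direction. In the cluster of MT-TI, MT-TQ and MT-TM none was higher and 2 were lower. In the cluster of MT-TW, MT-TA, MT-TN, MT-TC and MT-TY, 4 were higher and MT-TN was lower, with differences from -21.9 to 42.1 points. MT-TH, MT-TS2 and MT-TL2, which abut, gave 1 higher, 1 overlapping and 1 lower. The 2 leucine mt-tRNAs lay 51.0 points up and 9.76 points down.

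A higher percentage can come with more extended reads or with fewer reads that end at CCA. Reads were therefore scaled to 100000 reads at +3 of each library. Each mt-tRNA has its own primer, so these values are relative within an amplicon pool and are no measure of mt-tRNA abundance. MT-TP had 159 extended reads per 100000 in PDE12+/+ and 160 with mtPAP, while its reads ending at CCA were 527 and 23.4. MT-TE had 229 and 314 extended reads, and 1783 and 141 ending at CCA. MT-TK had 481 and 552 extended, and 5515 and 868 ending at CCA. On this scale the change for these lay mainly in the reads ending at CCA, and its split depends on the total used. With MT-TV left out of both totals, the ratios of extended reads, mtPAP over PDE12+/+, were 1.39, 1.90 and 1.59 for MT-TP, MT-TE and MT-TK. Those of reads ending at CCA were 0.0614, 0.110 and 0.218.

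MT-TA showed the other pattern, with 975 and 4167 extended reads per 100000 and with reads ending at CCA that were also more frequent, 3456 and 6006. MT-TL1 combined both, with 323 and 1388 extended and 652 and 261 ending at CCA. Of the 15 mt-tRNAs called higher, 11 had fewer reads ending at CCA and 11 had more extended reads per 100000. With MT-TV left out of both totals, an alternative added after seeing the data, the counts were 10 of 14 and 10 of 14. All 4 called lower had fewer extended reads on either scale. Over the 22 mt-tRNAs the Spearman correlation between the difference in percentage extended and the log2 ratio of scaled reads was -0.30, a description only, since both share the reads at +3.

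The added stretches were longer with mtPAP. The number of added bases was read from the fall in reads from one position to the next, in the 19 mt-tRNAs with at least 20 extended reads in both libraries, which leaves out MT-TQ, MT-TL2 and MT-TS1. The median number of added bases was higher for 15 of 19 (78.9%), equal for MT-TI, MT-TM and MT-TN and lower for MT-TY. The 15 include MT-TV, part of whose added bases match the linker, as described below. The median over the 19 was 5 bases in PDE12+/+ (range 1 to 6) and 7 with mtPAP (range 2 to 8). Few reads passed 9 added bases in either library, and a tail beyond the reach of the alignment would be read as shorter than it is. The longest extension in both libraries was 7 bases in MT-TS2, 8 in MT-TC, MT-TT and MT-TP and 9 in MT-TE. In MT-TM it was 8 and 9. Extended reads at the last length rose from 8.69% to 45.4% in MT-TC and from 14.4% to 36.2% in MT-TT. Whether tails ended there cannot be told, so medians of 7 and 8 may be too low.

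MT-TP had a median of 4 added bases in PDE12+/+ and 7 with mtPAP. Reads with 6 or more added bases were 19.0% (16.3 to 22.1) and 75.7% (71.4 to 79.5) of its extended reads. MT-TE went from a median of 6 to 8, with 54.2% (51.1 to 57.3) and 88.8% (86.5 to 90.8) at 6 or more. MT-TH went from 5 to 7, with 43.2% (39.7 to 46.7) and 81.0% (78.7 to 83.1). The share with 6 or more added bases was higher with intervals apart in 13 of the 19 and lower in MT-TN alone.

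Extensions of a lone base became rarer. Their share of the extended reads was lower with intervals apart in 16 of the 19 and higher in MT-TS2, and its median over the 19 was 19.5% in PDE12+/+ and 6.61% with mtPAP. In MT-TT it was 39.7% in PDE12+/+, and 0 of 939 extended reads ended there with mtPAP, which allows a share of up to 0.319% (3 reads, with a Wilson upper bound of 0.407%). MT-TN, which was less extended, also lost them, with 4768 of 24514 extended reads at 1 base in PDE12+/+ and 26 of 2313 with mtPAP, while its median stayed at 3.

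MT-TA had a distribution of 2 parts. In PDE12+/+, 2529 of its 4224 extended reads ended after 1 base (59.9%) and 0.521% carried 8 or more. With mtPAP 4896 of 11023 still ended after 1 base (44.4%), but 47.5% carried 8 or more, and hardly any lay between 3 and 5. The median of MT-TA, 1 and 6, describes neither part well.

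The added bases were mostly A, and the share of A at the first of them was higher with mtPAP in most mt-tRNAs. At +4 the median share of A over the 19 mt-tRNAs was 91.6% in PDE12+/+ (range 67.5% to 99.7%) and 99.4% with mtPAP (range 73.5% to 100%). It was higher with intervals apart in 11 of 19 (57.9%) and lower in 1 (5.26%). MT-TD had 67.5% (65.2 to 69.7) and 93.0% (90 to 95.1), and its C at +4 went from 459 of 1669 reads to 3 of 384. MT-TC had 70.3% and 94.7%, MT-TG 80.7% and 99.7%, and MT-TE 87.7% and 99.9%. In PDE12+/+ the commonest other base at +4 was C in each of these.

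MT-TH was the exception. Its share of A at +4 was 91.2% (89.0 to 93.0) in PDE12+/+ and 74.0% (71.5 to 76.4) with mtPAP, and C at +4 was read in 67 of 783 and in 318 of 1230 reads, 8.56% and 25.9%. MT-TV had 69.8% and 73.5%, with overlapping intervals, the lowest share of the 19 with mtPAP. In MT-TV, T followed at +5 in 374 of 1409 extended reads with mtPAP (26.5%) and in 22 of 169 without (13%). The linker begins with atgtg, so that part of the reads counted as extended in MT-TV hold letters that match it. Its next letters, G, T and G, were read at +6, +7 and +8 in 222, 215 and 211 MT-TV reads with mtPAP. In PDE12+/+ they were read in 19, 9 and 11. Whether these bases are linker was not tested. T at +5 made up over 2% of extended reads in 6 of 22 mt-tRNAs in PDE12+/+ and in 3 of 19 with mtPAP. MT-TQ, MT-TL2 and MT-TS1, which the 19 leave out, held no T at +5 in either library. Apart from MT-TV, those over 2% in PDE12+/+ all had a smaller share with mtPAP. They were MT-TG (8.71% and 4.87%), MT-TE (8.58% and 1.69%), MT-TC (8.15% and 0.492%), MT-TK (4.22% and 0.958%) and MT-TP (4.07% and 0%). The share was larger with mtPAP in MT-TD (1.68% and 3.65%, from 28 and 14 reads), MT-TS2 (0.709% and 1.48%) and MT-TM (1.34% and 1.74%). No intervals were computed for these shares, so none of them is called higher or lower.

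Upstream of the tail, the CCA itself differed between the libraries in both directions. A was read in place of the second C (+2) more often with mtPAP in 9 of 22 mt-tRNAs (40.9%) and less often in 8 (36.4%), with medians of 2.14% in PDE12+/+ and 3.16% with mtPAP. In 7 mt-tRNAs, MT-TF, MT-TQ, MT-TW, MT-TN, MT-TK, MT-TH and MT-TT, the genome also has A at this place, so that an untrimmed precursor and a changed CCA cannot be told apart by this base. Of these, 4 were higher and 3 lower. MT-TS2 held A at +2 in 28.9% of reads in PDE12+/+ (28.1 to 29.7) and 51.7% with mtPAP (49.8 to 53.6). Its percentage extended, given above, did not differ beyond counting error. MT-TR went from 1.59% (1.08 to 2.33) to 14.3% (9.23 to 21.4), the latter from 18 of 126 reads.

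MT-TN, MT-TQ and MT-TY moved the other way. A at +2 was 33.1% (32.7 to 33.4) and 10.7% (10.2 to 11.2) in MT-TN. It was 12.7% (11.3 to 14.3) and 1.26% (0.687 to 2.31) in MT-TQ. In MT-TY it was 15.7% (13.7 to 17.9) and 3.70% (1.02 to 12.5), the latter from only 2 of 54 reads. All 4 mt-tRNAs whose extension was lower with mtPAP, MT-TN, MT-TQ, MT-TL2 and MT-TM, also had less A at +2, and so did 4 whose extension was higher, MT-TA, MT-TY, MT-TG and MT-TT.

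**Figure D1:**
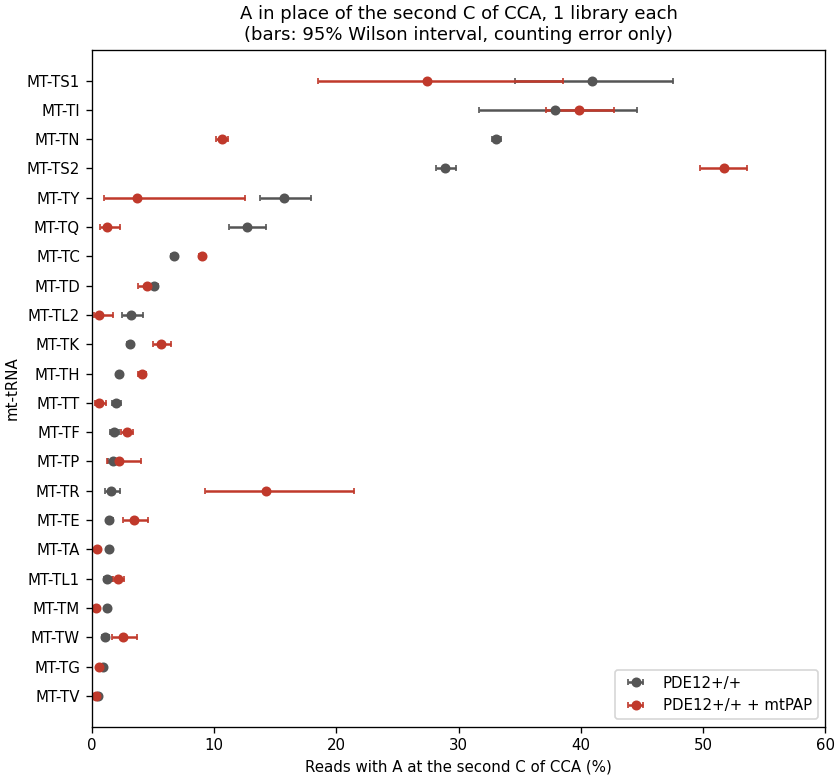
Share of A in percent at +2, where CCA has its second C (x axis) for each mt-tRNA (y axis, ordered by PDE12+/+), PDE12+/+ in grey and PDE12+/+ + mtPAP in red, 1 library each, with 95% Wilson intervals. MT-TS2 moves right, from 28.9% to 51.7%, and MT-TN moves left, from 33.1% to 10.7%.

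Reads that reached the discriminator base but ended before the A of CCA were also counted. Their share had a median of 7.38% in PDE12+/+ (range 1.63% to 33.5%) and 9.39% with mtPAP (range 0.126% to 41.7%), and was higher with mtPAP in 9 of 22 mt-tRNAs (40.9%) and lower in 7 (31.8%). MT-TK had 7.23% (6.94 to 7.54) and 22.7% (21.6 to 23.9), and MT-TG 6.58% and 17.2%. MT-TI had 7.52% and 20.5%. MT-TA and MT-TQ stood at the other end, with 8.59% and 0.749% for MT-TA and 4.83% and 0.126% for MT-TQ. In MT-TY the table with mtPAP starts 1 base earlier, and 44.1% of its 152 reads there (36.4 to 52.0) ended before the discriminator base.

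The levels in PDE12-/- are given beside these for reference. The comparisons share the PDE12+/+ + mtPAP library, and genotype cannot be told apart from clone. Against PDE12-/-, the percentage extended in PDE12+/+ + mtPAP was higher in 5 of 22 mt-tRNAs (22.7%), namely MT-TP, MT-TE, MT-TL1, MT-TT and MT-TR, and lower in 12 (54.5%). MT-TE was 18.8% extended in PDE12-/- and 68.9% in PDE12+/+ + mtPAP. MT-TP was 42.4% and 87.2%. MT-TH stood in the reverse order, with 89.9% in PDE12-/- and 9.05% in PDE12+/+ + mtPAP, and so did MT-TK with 91.1% and 38.9%.

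With mtPAP in PDE12-/- the percentage extended was above that with mtPAP in PDE12+/+ in 22 of 22 mt-tRNAs, with intervals apart in 21 (95.5%). MT-TY was the exception, at 83.5% and 75.9%. The medians over the 22 were 34.5% in PDE12-/- and 88.5% in PDE12-/- + mtPAP. MT-TN, MT-TQ and MT-TM, which were lower with mtPAP in PDE12+/+, stood at 81.8%, 90.3% and 63.1% in PDE12-/- + mtPAP, whereas MT-TL2 stood at 12.1% there. The MT-TQ value is 56 of 62 reads. In that library A was read in MT-TQ at +1 in 59 of 66 reads and at +2 in 58 of 65, so most held no CCA. The genome also has A at both places. Under the reading of the sample titles the libraries change places, and PDE12+/+ + mtPAP would be the one with a median of 88.5%, 21 mt-tRNAs higher than PDE12+/+ and none lower.

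**Figure D2:**
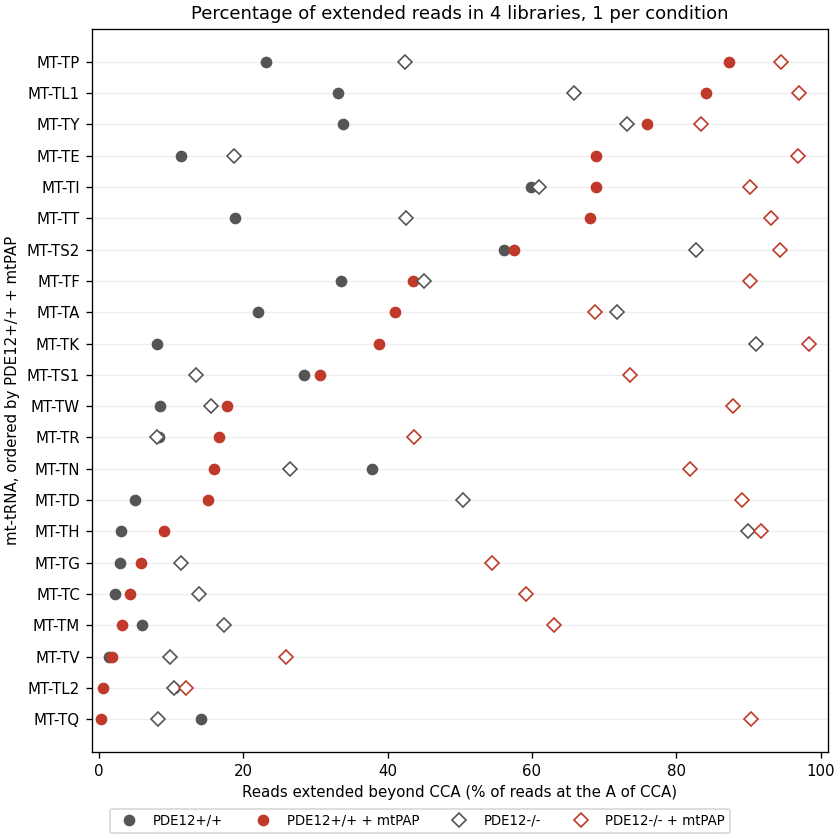
Percentage of reads extended beyond CCA (x axis) for each mt-tRNA (y axis, ordered by PDE12+/+ + mtPAP) in 4 libraries, 1 per condition, with filled circles for PDE12+/+ and open diamonds for PDE12-/-, grey without and red with mtPAP. Every open red diamond lies to the right of the filled red circle of the same mt-tRNA, and MT-TH is at 9.05% in PDE12+/+ + mtPAP and 89.9% in PDE12-/-.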

How the data were processed

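MPAT-Seq tables of 6 libraries of HEK293T cells were used, of which PDE12+/+ and PDE12+/+ + mtPAP were compared. The authors trimmed primers with cutadapt, mapped reads over 20 nt with Bowtie2 to a reference from GRCh38 with 30 uncalled positions after each mt-tRNA, and deposited raw read counts, in total and per base, at each position from the discriminator base. The counts are not normalized and carry no molecular identifiers, and tool versions are not given in the sources used here. RNA-seq tables were not used here.

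Tables were read in Python 3.11.15 with NumPy 2.4.6 and SciPy 1.17.1. A table printed as MT-TT that holds the positions of MT-TD in PDE12+/+ was read as MT-TD, and MT-TY with mtPAP was counted from its discriminator base. Percentages have 95% Wilson intervals and differences have Newcombe intervals, checked on simulated data. No p-value was computed, because each condition has 1 library. All 22 mt-tRNAs are given by their percentage extended in both libraries, at least as a count. Values are given in full for those the study discusses, the 5 largest increases and those that were lower. Members and lists were chosen with earlier results of these data known. Alternatives were the denominator, the added base, position +5, a minimum of 500 reads, the genotype by title, summed reads, reads without A at +2, MT-TY as printed, 99% intervals, mean length, all added positions and the first C. Bounds for reads with C at +2, removal of reads with T at +5 and totals without MT-TV were added after seeing the data.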

Additional observations from a re-analysis of the deposited data

Results flagged for a closer look

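In 5 of 22 mt-tRNAs the percentage extended moved in opposite directions with mtPAP in the 2 genotypes. The difference between the genotypes was not tested, since each has 1 library with and 1 without mtPAP. MT-TN differed by -21.9 points in PDE12+/+ and by 55.3 points in PDE12-/-. MT-TQ differed by -13.9 and 82.2 points, MT-TM by -2.73 and 45.7 points, and MT-TL2 by -9.76 and 1.69 points, where the interval in PDE12-/- ran from -0.443 to 4.04. The MT-TQ values in PDE12-/- rest on 172 reads at +3 without mtPAP and 62 with it. With mtPAP there, A stood at +1 in 89.4% and at +2 in 89.2% of MT-TQ reads, so most of them held no CCA before +4. MT-TA differed by 19.0 points in PDE12+/+ and by -3.07 points (-4.14 to -1.99) in PDE12-/-.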

How the results depend on the processing

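No paired analysis was possible because MPAT-Seq has 1 library per condition, and the replicate numbers in the labels belong to RNA-seq samples that were not used. For the median percentage extended, a difference of 11.4 points, the alternatives gave 5.42 points with discriminator base reads as denominator, 11.6 with only A at +4, 7.89 at +5, 5.64 over the 17 mt-tRNAs with at least 500 reads in both libraries, 75.7 with the genotype by title, 1.33 and 16.4 as the lower and upper bounds without A at +2, 1.32 and 16.3 as those with C at +2, 11.8 without T at +5, and -0.40 with reads summed. The counts of 15 higher and 4 lower ranged from 12 to 21 and from 0 to 4, with 0 lower only under the genotype by title. There MT-TQ, MT-TM, MT-TN and MT-TL2 reversed to 76.1, 57.1, 44 and 1.74 points. The difference in length was 2 bases, 2.5 by title and 1.5 by means. That in A at +4 was 7.80 points, 6.24 by title, 2.86 summed and 3.37 over all added positions. That in reads lost before the A of CCA was 2.01 points, 1.15 with at least 500 reads, 1.73 by title and 4.26 summed. That in A at the second C was 1.01 points, 0.51 with at least 500 reads, and reversed to -0.80 by title, -4.73 summed and -0.84 at the first C. Causes were not tested. The depth limits MT-TS1, MT-TY and MT-TR, with 49, 54 and 126 reads with mtPAP.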

Other observations

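Bases that match the encoded sequence after the gene were less frequent with mtPAP in MT-TP and at +1 in MT-TN, which were chosen after their values were seen. Other mt-tRNAs moved in both directions at single positions, and these positions were not counted. The encoded C at +4 of MT-TC was less frequent with mtPAP, at 22.3% and 5.25% of extended reads. The encoded G at +1 of MT-TA was read in 311 of 20673 reads in PDE12+/+ and in 3 of 27108 with mtPAP. In the other direction, MT-TD held G at +4 in 1.56% of extended reads in PDE12+/+ and 6.25% with mtPAP. MT-TG held T at +2 in 0.0689% and 0.236% of reads. The encoded T at +2 and G at +3 of MT-TD were read with mtPAP in 0 of 2633 and 0 of 2547 reads. Their Wilson upper bounds were 0.146% and 0.151%, against shares of 0.104% and 0.144% in PDE12+/+. MT-TP is followed by tttg in the genome. T was read at its +1 in 347 of 3078 reads in PDE12+/+ (11.3%, 95% Wilson interval 10.2 to 12.4) and in 5 of 486 with mtPAP (1.03%, 0.440 to 2.39). At +3, where the A of CCA belongs, T was read in 235 of 2973 reads in PDE12+/+ (7.90%) and in 0 of 486 with mtPAP, which allows a share of up to 0.617% (3 reads, with a Wilson upper bound of 0.784%). G at +4, the next encoded base, was read in 65 of 688 and in 0 of 424 reads, which allows up to 0.708% (Wilson upper bound 0.898%).

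MT-TN is followed by taag. T was read at its +1 in 16362 of 70127 reads in PDE12+/+ (23.3%, 23.0 to 23.6) and in 610 of 15515 with mtPAP (3.93%, 3.64 to 4.25), but the encoded G at +4 in 202 of 24514 and 1 of 2313 reads. The A at its +2, which the encoded sequence also holds, was given above as A in place of C.

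In MT-TL1 with mtPAP, 145 reads held T at +6 and 145 reads reached +13. Whether they are the same reads cannot be told from counts per position. Without mtPAP, 124 reads reached +13 and no read held T at +6.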
